A study of Mus musculus with 6 samples.

Results

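The genes described here are 31 genes of the contractile apparatus and its actin scaffold, many of them textbook targets of serum response factor (SRF), out of 22274 genes in the deposited table. They were listed by gene name, and all 31 had a row in the table and passed the filter on low counts. The list has 5 smooth-muscle-type genes, Acta2, Tagln, Cnn1, Actg2 and Myh11, and 26 general actin cytoskeleton genes. Some genes of the general list, such as Des, Lmod1, Smtn, Synpo2 and Mylk, are also best known from muscle, so the division is that of the list and not a strict line between tissues. In bulk RNA, fewer cells of a type and less RNA per cell cannot be told apart.

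The RNA-seq libraries came from wild-type mouse cells labelled as primary renal fibroblasts and grown in medium with fetal bovine serum. The control group has 3 libraries from cells with a scrambled negative control siRNA, and the treated group 3 libraries from cells with a Prune2 siRNA. Activation was by TGF-β, at a dose of 5 ng/ml over 48 h, in both groups, so no library shows these genes without TGF-β. The labels do not state that the 3 libraries of a group were separate cultures or animals, and the p-values here measure spread between libraries that may be no more than technical.

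SRF is a transcription factor that binds a short DNA element called the CArG box. It is switched on at contractile and cytoskeletal genes by the myocardin-related cofactors MRTF-A and MRTF-B. These are released when free actin monomers are used up by filament assembly. At growth-factor genes SRF works with ternary complex factors, a family that includes Elk3. TGF-β turns kidney fibroblasts into contractile myofibroblasts, whose stress fibres contain smooth muscle α-actin, calponin and transgelin, and this change is a standard readout of fibroblast activation.

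The CArG box is CC, then 6 bases that are each A or T, then GG, and it reads the same way on both strands. It was looked for in RefSeq promoter windows of GRCm38.p6, from 250 bases before to 50 bases after each gene's start, 300 bases in all. Of the 28 listed genes with a window, 5 (17.9%) held an exact CArG box, and 7 (25%) held a box with at most 1 mismatch among the 6 central bases. Over all 27025 genes with a window the shares were 1.81% and 11.3%. These are matches of letters and not shown binding sites. The matches are printed with 10 bases on each side because SRF targets are defined by this element. Each stretch is read on the gene's own strand, 5′ to 3′, with the 10 bases of the CArG match in capitals.
Acta2 (chr19:34255438-34255467, minus strand, 1 mismatch): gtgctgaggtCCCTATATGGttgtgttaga
Acta2 (chr19:34255388-34255417, minus strand, 1 mismatch): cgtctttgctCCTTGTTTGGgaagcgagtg
Myl9 (chr2:156775293-156775322, plus strand, exact): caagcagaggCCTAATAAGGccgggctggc
Myl9 (chr2:156775355-156775384, plus strand, 1 mismatch): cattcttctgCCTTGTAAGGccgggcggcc
Vcl (chr14:20929161-20929190, plus strand, exact): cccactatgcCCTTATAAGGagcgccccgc
Srf (chr17:46556225-46556254, minus strand, exact): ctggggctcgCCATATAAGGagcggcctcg
Srf (chr17:46556205-46556234, minus strand, exact): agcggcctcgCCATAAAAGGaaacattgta
Cnn2 (chr10:79988534-79988563, plus strand, exact): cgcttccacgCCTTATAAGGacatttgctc
Myl6 (chr10:128493040-128493069, minus strand, exact): gctcttacttCCTTATATGGgcaggaccta
Lpp (chr16:24393343-24393372, plus strand, 1 mismatch): cctccccataCCTTACATGGacaaatgcgt

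The Myl9, Srf and Acta2 windows each held a pair of matches. Counted from the RefSeq start of the window, those of Acta2 began 84 and 34 bases before it, those of Myl9 161 and 99 bases, and those of Srf 82 and 62 bases. The Vcl match began 227, the Cnn2 match 56 and the Myl6 match 50 bases before that start, and the Lpp match just after it. The RefSeq start is not always the outer end of the GENCODE gene, whose coordinates are given for each gene below. Counted from that end, the Acta2 matches began 133 and 183 bases and the Myl6 match 1086 bases inside the gene, while those of Myl9 began 117 and 55 bases, those of Srf 69 and 49, the Cnn2 match 40 and the Lpp match 154 bases before it. For Vcl both starts are the same. A longer stretch of the window is printed for Myl9, which encodes the regulatory myosin light chain, and for Srf, because each holds a pair of boxes and the RNA of only the first is called changed below. These stretches run from the far end of the window to the last base before the GENCODE gene and so stop short of the RefSeq start.
Myl9 (chr2:156775214-156775419, plus strand): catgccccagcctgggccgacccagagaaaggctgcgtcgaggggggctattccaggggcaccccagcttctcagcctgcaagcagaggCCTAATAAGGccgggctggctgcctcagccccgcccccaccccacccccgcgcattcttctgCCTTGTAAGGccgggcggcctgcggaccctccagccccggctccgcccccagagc
Srf (chr17:46556176-46556412, minus strand): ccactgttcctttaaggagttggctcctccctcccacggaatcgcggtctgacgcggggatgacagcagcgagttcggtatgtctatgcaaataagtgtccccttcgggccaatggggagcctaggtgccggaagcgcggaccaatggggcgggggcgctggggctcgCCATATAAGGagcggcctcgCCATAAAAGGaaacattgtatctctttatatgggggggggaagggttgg

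Each library held between 20075265 and 23234797 counted reads. A gene is called changed where edgeR's quasi-likelihood test gave a Benjamini-Hochberg adjusted p under 0.05 over the 13248 genes tested, and levels are CPM, a gene's count scaled to the size of its library. By this rule 1364 genes changed, 773 lower and 591 higher with Prune2 siRNA, and their median fold was 1.26. With control siRNA the Prune2 level was 6.49, 7.85 and 6.52 CPM, and with its own siRNA 3.78, 3.19 and 4.44 CPM, a fall of 45.3% (log2 fold change -0.87, SE 0.15, adjusted p = 0.000214, and 0.141 on log2(FPKM + 1)). Markers of other cell types moved too. The summed level of 18 leukocyte markers was 191 to 234 CPM in control libraries and 50.2 to 51.6 CPM with Prune2 siRNA, with 17 of 18 lower. For 14 endothelial markers it was 153 to 167 and 114 to 119 CPM, with 7 of 13 tested lower. For 12 mural and smooth muscle markers it was 355 to 369 and 311 to 325 CPM, with 3 of 8 tested lower. Abcc9, Kcnj8, Myocd and Pln were too low to test, though none was at 0 in every library. Most of that sum came from Mcam (mean 228 and 202 CPM) and Cspg4 (81.3 and 65.3 CPM). For 12 fibroblast markers the summed level was 917 to 954 and 696 to 737 CPM, with 3 of 9 tested lower and Dcn, Lum and Tcf21 too low to test. The tubular epithelial sum follows. For 16 markers of tubular epithelium it was 6798 to 6924 and 6309 to 6887 CPM, with 4 of 13 tested higher and 3 lower. Per transcript length, the control means of the fibroblast markers were 260 FPKM for Vim, 39.7 for Col1a1, 16.0 for Col1a2 and at most 3.63 for each of the other 9, with 0.85 for Pdgfra. Vim, which many cell types express, carried most of the fall in the fibroblast sum, from 570 to 395 CPM. Among the tubular epithelial markers, the keratins Krt8, Krt18 and Krt7 were at 1232, 892 and 285 FPKM, Epcam at 244 and Cdh1 at 238, although the cells are labelled as fibroblasts, while Aqp1 (3.64), Lrp2 (2.68) and Cubn (0.90) were low. Slc34a1 and Aqp2, markers of proximal tubule and collecting duct, were at 0 in every library. The part of these cell types in the results below was not tested.

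Of the 31 genes, 12 were lower with Prune2 siRNA, 1 was higher and 18 were not called. Over all tested genes 5.83% were lower, 4.46% higher and 10.3% called in either direction. The median log2 fold change of the list was -0.08, beside 0.00 over all tested genes, and 26 of 31 estimates were below 0. Among genes with at least 50 CPM in a group, 12.5% were called and 5.84% were lower, and of the 25 listed genes at that level 10 were called, all of them lower. The count of 12 fell to 7 without Prune2 siRNA replicate 3 and to 6 with limma on log2(FPKM + 1). The 3 control libraries and the 3 Prune2 siRNA libraries did not overlap for 17 of the 31 genes, 15 of them lower and 2 higher with Prune2 siRNA. Over all tested genes 24.3% of genes did not overlap, 12.4% lower and 11.9% higher. The summed level of the 31 genes was 25815 to 26072 CPM in control libraries and 24500 to 24685 CPM with Prune2 siRNA, so the sums did not overlap. Flna, Myh9, Tpm1 and Actn1 made up most of it, with control means of 4232, 3823, 3677 and 2319 CPM. Of these only Tpm1 was called, so the sum does not show a fall across the list.

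Among the smooth-muscle-type genes 3 of 5 fell, none was called higher (0 also at an unadjusted p under 0.05 and with DESeq2), and the median log2 fold change was -0.36. Among the general genes 9 of 26 fell and 1 rose, with a median of -0.07. The count of 9 was 5 when control replicate 1, control replicate 2 or Prune2 siRNA replicate 2 was left out, and 4 when the third Prune2 siRNA library was. The summed level of the smooth-muscle-type genes was 1364 to 1458 CPM in control libraries and 1085 to 1185 CPM with Prune2 siRNA. Acta2 and Tagln made up most of it, with control means of 715 and 607 CPM. The sum of the general genes was 24357 to 24630 CPM and 23332 to 23570 CPM. The difference between the 2 lists was not tested, since the lists were chosen with earlier results of these data known. The genes that fell were modestly lower: the largest fall, that of Lmod1, was 27.8% of the control mean.

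**Figure D1:**
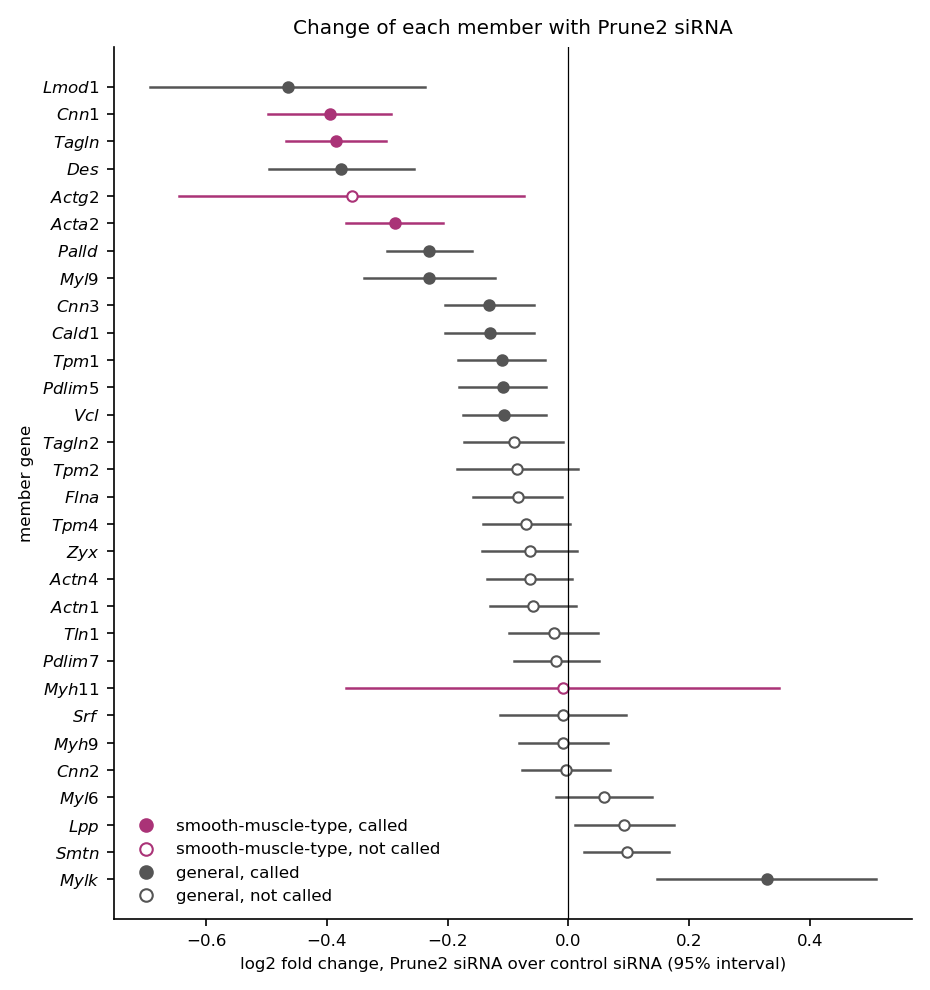
Log2 fold change with Prune2 siRNA over control siRNA for each listed gene (x axis), with its 95% interval from edgeR as a line, ordered by estimate; filled points were called, open points were not, and Synpo2 is left out because its interval (-0.77 to 1.00) would stretch the axis. Lmod1, Cnn1, Tagln and Des lie furthest to the left, Mylk lies furthest to the right, and the interval of Myh11 spans both directions.

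The actins of the list are the smooth muscle forms. Acta2 (ENSMUSG00000035783, chr19:34241090-34255590, minus strand) encodes smooth muscle α-actin, the classic marker of the myofibroblast. It was at 730, 726 and 688 CPM in control libraries and at 621, 570 and 566 CPM with Prune2 siRNA. Every Prune2 siRNA library was below every control library, and the level fell by 18.1% (log2 fold change -0.29, SE 0.04, adjusted p = 7.31e-06 with edgeR). Its RefSeq promoter window has the pair of imperfect CArG matches shown above. Actg2, smooth muscle γ-actin (chr6:83512905-83536265), was at 7.42, 8.80 and 6.52 CPM and at 5.62, 5.24 and 6.79 CPM. Here Prune2 siRNA replicate 3 was above control replicate 3, so the groups overlapped, and the gene was not called (log2 fold change -0.36, 95% interval -0.65 to -0.07, adjusted p = 0.116). Without control replicate 3 it was called (log2 fold change -0.46, adjusted p = 0.0402). Actg2 had only 119 to 176 counts per library, so a fall of the size seen for Acta2 was not detectable by this rule at its depth.

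Among the actins outside the list, 2 of 11 tested genes of actin and its assembly were lower, beside 5.83% of all tested genes. Tmsb4x, which encodes the actin monomer-binding peptide thymosin β4, fell from 832 ± 17.0 CPM to 654 ± 19.9 CPM (SD, n = 3, log2 fold change -0.35, edgeR adjusted p = 7.54e-08). Acta1, skeletal muscle α-actin and also an SRF target, was at 81.4, 77.9 and 80.6 CPM in control libraries and at 71.6, 75.9 and 58.0 CPM with Prune2 siRNA (log2 fold change -0.23, adjusted p = 0.0227). That call rested on single libraries: the adjusted p was 0.0829 without control replicate 1 and 0.219 without Prune2 siRNA replicate 3, the lowest library. The cytoplasmic actins Actb (log2 fold change -0.05, adjusted p = 0.549) and Actg1 (-0.09, adjusted p = 0.151) were not called.

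**Figure D2:**
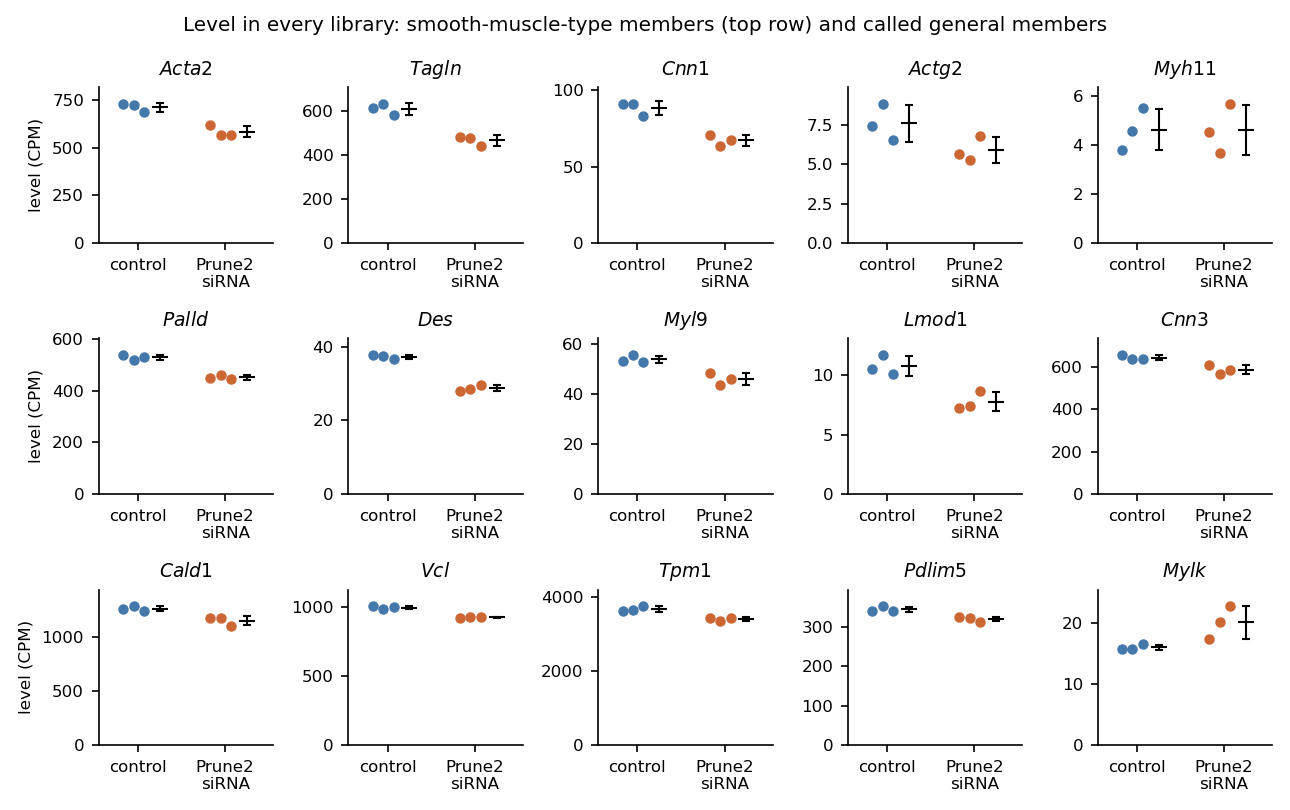
Level in CPM (y axis, from 0) in each control siRNA and Prune2 siRNA library, 1 point per library with the mean ± SD beside them, for the 5 smooth-muscle-type genes in the top row and the 10 called general genes below. The groups are apart for Acta2, Tagln, Cnn1 and all 10 called general genes and overlap for Actg2 and Myh11, and only Mylk is higher with Prune2 siRNA.

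Proteins that bind the thin filament made up the largest role group, with 6 of 11 genes lower. Tagln (ENSMUSG00000032085, chr9:45929619-45936058, minus strand) encodes transgelin, an early marker of smooth muscle and myofibroblasts, and had the smallest adjusted p of the list. It was at 613, 629 and 580 CPM in control libraries and at 482, 475 and 438 CPM with Prune2 siRNA. The gap between the groups was wider than the range within either, and the level fell by 23.4% (log2 fold change -0.39, SE 0.04, adjusted p = 1.18e-07). Cnn1 (ENSMUSG00000001349, chr9:22099216-22109630, plus strand) encodes calponin 1, which restrains myosin on actin in smooth muscle. Its levels were 91.0, 91.0 and 83.3 CPM and 70.9, 63.4 and 67.2 CPM. All 3 Prune2 siRNA libraries lay below the lowest control, a fall of 24.0% (log2 fold change -0.40, SE 0.05, adjusted p = 2.21e-06).

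Lmod1 (chr1:135324807-135368065) encodes leiomodin 1, which starts new actin filaments in smooth muscle. It was at 10.5, 11.7 and 10.1 CPM in control libraries and at 7.22, 7.42 and 8.67 CPM with Prune2 siRNA. The groups did not overlap, and the level fell by 27.8% (log2 fold change -0.46, SE 0.11, adjusted p = 0.00513). On the log2(FPKM + 1) scale, which compresses low genes, Lmod1 was not called (adjusted p = 0.0691).

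The other thin filament genes that fell did so by less. Cnn3, the acidic calponin of many cell types, was at 656, 636 and 639 CPM and at 611, 568 and 585 CPM (log2 fold change -0.13, adjusted p = 0.0155). Cald1, caldesmon, which blocks myosin from actin, was at 1259, 1284 and 1236 CPM and at 1170, 1179 and 1103 CPM (-0.13, adjusted p = 0.0166). Tpm1, a tropomyosin that runs along the filament, was at 3622, 3655 and 3753 CPM and at 3431, 3343 and 3440 CPM (-0.11, adjusted p = 0.0407). In all 3 genes the groups were apart, but these calls were not stable. Cnn3 was not called without the first control library (adjusted p = 0.0737) or when the second (0.0819) or the third (0.0664) Prune2 siRNA library was left out. For Cald1 the call was lost without control replicate 2 or Prune2 siRNA replicate 3 (adjusted p = 0.0955 and 0.14). Tpm1 was not called without any 1 of the 6 libraries (adjusted p from 0.0565 to 0.128), nor when libraries were scaled by total counts only (0.0652). None of the 3 was called on log2(FPKM + 1), with adjusted p = 0.103 for Cnn3, 0.147 for Cald1 and 0.23 for Tpm1.

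The remaining 5 genes of this role were not called. Smtn, smoothelin, was at 561, 560 and 570 CPM and at 593, 594 and 621 CPM, so all 3 Prune2 siRNA libraries were above the controls (log2 fold change 0.10, adjusted p = 0.0819, and 0.0365 with DESeq2). Tagln2 and Cnn2, close relatives of Tagln and Cnn1, had log2 fold changes of -0.09 (95% interval -0.17 to -0.01, adjusted p = 0.183) and 0.00 (-0.08 to 0.07, adjusted p = 0.969). Without Prune2 siRNA replicate 1, Tagln2 was called lower (adjusted p = 0.0271). Tpm2 (-0.08, adjusted p = 0.361) and Tpm4 (-0.07, adjusted p = 0.266) overlapped between groups.

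Of the 5 myosin and myosin-activating genes, 1 fell and 1 rose. Myl9 (ENSMUSG00000067818, chr2:156775420-156781658, plus strand) encodes the regulatory light chain whose phosphorylation starts contraction. It was at 53.3, 55.5 and 52.9 CPM in control libraries and at 48.2, 43.6 and 46.0 CPM with Prune2 siRNA. The groups did not overlap, and the level fell by 14.7% (log2 fold change -0.23, SE 0.05, adjusted p = 0.00375). Mylk (chr16:34745210-35002420), which encodes myosin light chain kinase, the enzyme that phosphorylates that light chain, went the other way. It was at 15.9, 15.8 and 16.6 CPM in control libraries and at 17.4, 20.2 and 22.9 CPM with Prune2 siRNA. The treated libraries were all above the controls but spread more widely, and the level rose (log2 fold change 0.33, SE 0.09, adjusted p = 0.0136). Mylk was not called without control replicate 1 (adjusted p = 0.0563), control replicate 2 (0.0623) or Prune2 siRNA replicate 3, its highest library (0.164, log2 fold change 0.23), nor on log2(FPKM + 1) (0.275).

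Myh11, smooth muscle myosin heavy chain (chr16:14194535-14291372), was at 3.81, 4.60 and 5.52 CPM in control libraries and at 4.53, 3.67 and 5.68 CPM with Prune2 siRNA. The groups covered nearly the same range (log2 fold change -0.01, 95% interval -0.37 to 0.35, adjusted p = 0.987). With 78 to 133 counts per library, this interval still holds the falls seen for Acta2 and Myl9. The nonmuscle heavy chain Myh9, at 3823 ± 57.1 and 3801 ± 107 CPM (SD, n = 3), had a log2 fold change of -0.01 with a far narrower interval of -0.08 to 0.07. Myl6, the essential light chain, had a log2 fold change of 0.06 (adjusted p = 0.448). Outside the list were 8 nonmuscle myosin genes, with 9 rows because Myl12b has 2 identifiers. Of these rows 3 were higher, beside 4.46% of all tested genes. Myo1c, a membrane-linked unconventional myosin, rose from 308 ± 4.84 to 350 ± 5.68 CPM (n = 3, log2 fold change 0.18, edgeR adjusted p = 0.000559). Myh14, a nonmuscle heavy chain, rose from 23.4 ± 0.864 to 29.1 ± 2.17 CPM (n = 3, 0.32, edgeR adjusted p = 0.00225). The called Myl12b row, a regulatory light chain, was at 146, 140 and 131 CPM and at 164, 145 and 159 CPM, which overlap (0.16, adjusted p = 0.0207). It was not called when control replicate 2 or 3, or Prune2 siRNA replicate 1 or 3, was left out, and its adjusted p reached 0.152 over all alternatives. The other Myl12b row had the higher level, at 214 ± 10.4 and 221 ± 1.99 CPM (n = 3), and was not called (0.05, edgeR adjusted p = 0.556).

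All 4 crosslinker and intermediate filament genes had lower levels in every Prune2 siRNA library than in any control library. The same held for 12.4% of all tested genes, and of the 4 only Des was called. Des (ENSMUSG00000026208, chr1:75360329-75368579, plus strand) encodes desmin, the intermediate filament of muscle and of mesangial and other contractile kidney cells. It was at 37.7, 37.4 and 36.7 CPM in control libraries and at 28.0, 28.4 and 29.7 CPM with Prune2 siRNA. The libraries of each group lay close together, and the level fell by 23.0% (log2 fold change -0.38, SE 0.06, adjusted p = 4.43e-05). Flna, which crosslinks actin into networks, had a log2 fold change of -0.08 (adjusted p = 0.172, and 0.0486 with DESeq2). The α-actinins Actn1 (-0.06, adjusted p = 0.379) and Actn4 (-0.06, adjusted p = 0.314), which bundle stress fibres, were not called.

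Of the 8 focal adhesion and stress fibre genes, 3 fell. Palld (ENSMUSG00000058056, chr8:61511433-61902690, minus strand) encodes palladin, a scaffold of stress fibres that is raised in activated fibroblasts. It was at 539, 521 and 533 CPM in control libraries and at 450, 463 and 444 CPM with Prune2 siRNA. The groups were far apart compared with the spread within them, and the level fell by 14.7% (log2 fold change -0.23, SE 0.03, adjusted p = 2.8e-05). Vcl, vinculin, which ties actin to integrin contacts and has an exact CArG match 227 bases before its start, was at 1008, 987 and 999 CPM and at 924, 928 and 930 CPM (log2 fold change -0.11, adjusted p = 0.0394). Pdlim5, an α-actinin-binding adaptor, was at 341, 354 and 342 CPM and at 325, 322 and 314 CPM (-0.11, adjusted p = 0.0445). Both sets of groups were apart, yet neither gene was called without any 1 of the 6 libraries (adjusted p from 0.0666 to 0.116 for Vcl and from 0.0513 to 0.202 for Pdlim5). They were also not called with total-count scaling (0.0623 and 0.0683) or on log2(FPKM + 1) (0.0966 and 0.129).

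The other 5 genes of this role were not called. Lpp, a zyxin relative, had a log2 fold change of 0.09 (adjusted p = 0.177) and was called higher without Prune2 siRNA replicate 1 (adjusted p = 0.0224). Zyx, Tln1 and Pdlim7 lay between -0.06 and -0.02 on the log2 scale. Synpo2 had 7 to 16 counts per library, too few for a change to be detectable (SE 0.43). Among 20 other focal adhesion genes 3 were lower and 2 higher, beside 5.83% and 4.46% of all tested genes. Itgb3, the β3 integrin, fell from 232 ± 8.02 to 155 ± 3.81 CPM (n = 3, log2 fold change -0.58, edgeR adjusted p = 3.59e-11), a larger change than that of any listed gene. Pdlim4, Enah, which extends actin filaments, and on the higher side Tns1 and Itgb5, had log2 fold changes of -0.35, -0.12, 0.18 and 0.16. Enah was not called when control replicate 1 or 2 (adjusted p = 0.12 and 0.0799) or Prune2 siRNA replicate 1 or 3 (0.0535 and 0.138) was left out, and Tns1 was not called without control replicate 2 (0.0541).

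Srf itself (ENSMUSG00000015605, chr17:46548329-46556175, minus strand) was at 68.4, 63.7 and 65.7 CPM in control libraries and at 67.2, 61.1 and 68.3 CPM with Prune2 siRNA. The groups overlapped (log2 fold change -0.01, 95% interval -0.11 to 0.10, adjusted p = 0.956), so a change of the size seen for Acta2 lay outside its interval. Its cofactors Mrtfa (117 and 116 CPM) and Mrtfb (83.5 and 84.0 CPM) had log2 fold changes of -0.01 and 0.01. Myocd, the muscle-restricted cofactor, had too few counts to test. Of 7 tested cofactor genes only Elk3 was called, beside 10.3% of all tested genes. Elk3 was lower, at 115 ± 1.65 and 105 ± 1.64 CPM (n = 3, log2 fold change -0.12, edgeR adjusted p = 0.0388). DESeq2 did not call Elk3 (adjusted p = 0.0805), nor was it called without any of the control libraries or without Prune2 siRNA replicate 2 or 3, and its adjusted p reached 0.161 over all alternatives.

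Other genes known as SRF targets were counted by kind. Of 19 tested cytoskeletal targets outside the list 8 were lower and 1 higher, with a median log2 fold change of -0.16. The shares over all tested genes were 5.83% lower and 4.46% higher. Csrp2, a LIM protein of smooth muscle, fell from 45.0 ± 3.41 to 32.1 ± 0.911 CPM (n = 3, log2 fold change -0.49, edgeR adjusted p = 2.12e-06), and Itga5, the fibronectin receptor subunit, from 416 ± 10.9 to 335 ± 15.2 CPM (n = 3, -0.31, edgeR adjusted p = 1.33e-06). Ablim1, an actin-binding LIM protein, rose (0.26, adjusted p = 0.000223). Of 11 tested immediate early targets, none was called by edgeR, 2 had an unadjusted p under 0.05 and DESeq2 called 1. The difference between these lists was not tested.

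Close relatives with different tissue ranges were then compared within each library, as the log2 ratio of their CPM + 0.5. With 3 libraries against 3 the exact two-sided permutation test cannot give a p below 0.1, so no pair could pass 0.05. Over the 8 pairs, 4 ratios were lower in every Prune2 siRNA library than in any control library. The ratio of Tagln to Tagln2 was 0.13, 0.19 and 0.14 in control libraries and -0.17, -0.05 and -0.20 with Prune2 siRNA. The ratio was above 0 in every control library and below 0 in every treated one, a difference of -0.29 (SE 0.05, exact p = 0.1, adjusted p = 0.2). Per transcript length the means were 385 FPKM for Tagln and 363 FPKM for Tagln2 in control libraries, and 296 and 345 FPKM with Prune2 siRNA. The ratio of Cnn1 to Cnn2 differed by -0.39 (SE 0.03), that of Cnn1 to Cnn3 by -0.26 (SE 0.04) and that of Acta2 to Actb by -0.24 (SE 0.04), each with exact p = 0.1 and adjusted p = 0.2. The other 4 ratios overlapped between groups. The difference was -0.04 (SE 0.02) for Tpm1 to Tpm4, -0.02 (SE 0.05) for Tpm2 to Tpm4, 0.01 (SE 0.02) for Actn1 to Actn4 and 0.00 (SE 0.23) for Myh11 to Myh9. A ratio shows unequal change and not which gene of the pair changed.

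**Figure D3:**
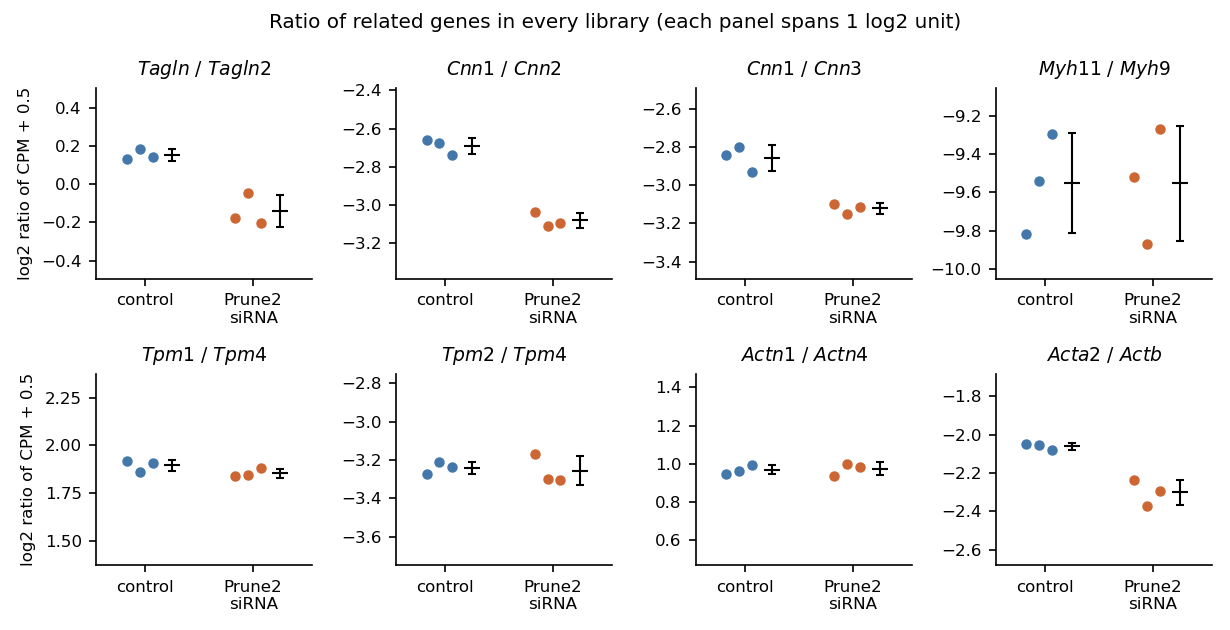
Log2 ratio of CPM + 0.5 (y axis, 1 log2 unit per panel) for 8 pairs of related genes in each control siRNA and Prune2 siRNA library, 1 point per library with the mean ± SD. The ratios of Tagln to Tagln2, Cnn1 to Cnn2, Cnn1 to Cnn3 and Acta2 to Actb are lower in all 3 Prune2 siRNA libraries, and the other 4 overlap.

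Levels were compared between genes per transcript length, on the deposited FPKM scale. The length implied by count, FPKM and library size was not constant between libraries. Among the 29 listed genes with at least 1 FPKM in every library, it ranged most for Cnn1 (12.0%), Actg2 (11.3%), Mylk (7.63%) and Cald1 (7.60%). In control libraries Tpm1 was the highest of the list at 2047 ± 44.5 FPKM (SD, n = 3), followed by Actn1 at 736 ± 14.8 and Cald1 at 530 ± 25.4. Cald1, Myh9 (513 ± 6.43) and Flna (507 ± 7.72) were next to each other and within 1 SD of Cald1. Tagln (385 ± 16.6) and Acta2 (370 ± 6.53) stood with Tagln2 (363 ± 6.84) in the upper part of the list, and neighbours among these 3 differed by less than 1 SD. Cnn1 was at 59.1 ± 2.27, Actg2 at 5.83 ± 0.769 and Myh11 at 0.707 ± 0.130 FPKM. The smooth-muscle-type genes were therefore spread over nearly the whole range of the list, and the 2 that were not called were 2 of its 5 lowest genes. Lmod1, Mylk and Synpo2 were the others, at 2.71 ± 0.210, 2.26 ± 0.091 and 0.0633 ± 0.0321 FPKM.

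**Figure D4:**
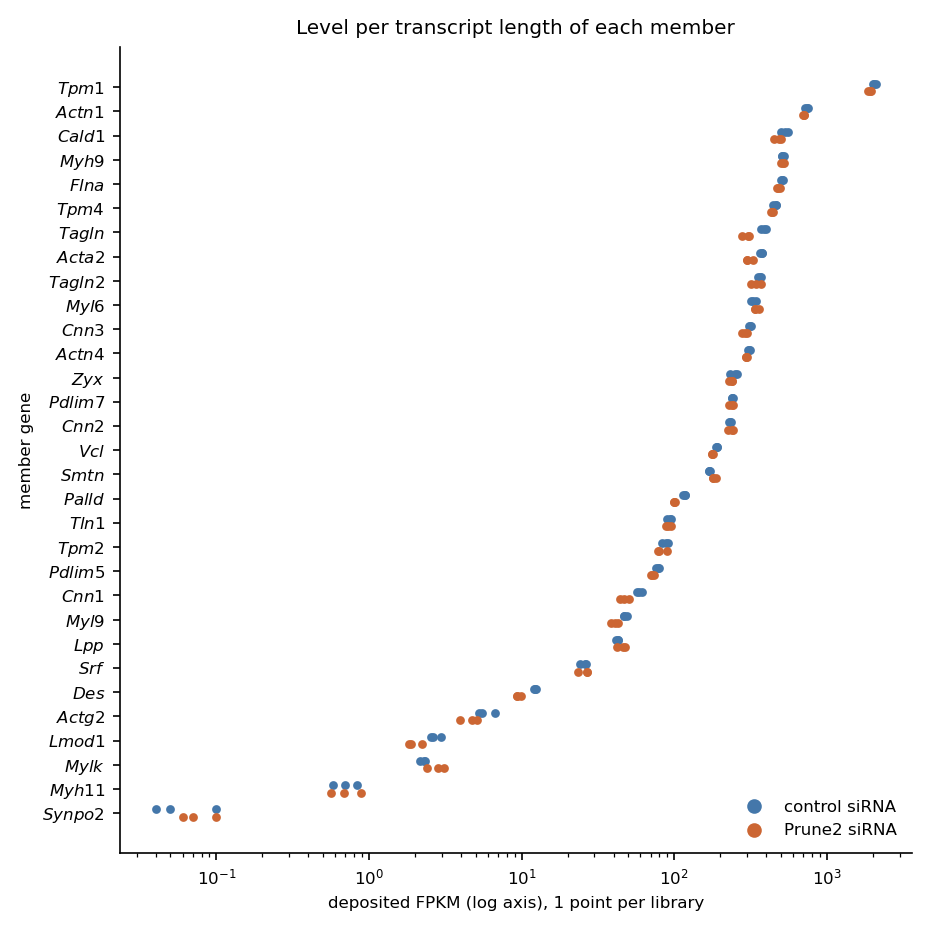
Deposited FPKM (x axis, log scale) of each listed gene in each library, 1 point per library, ordered by the control mean, with control siRNA above Prune2 siRNA in each line. The list runs from 2047 FPKM for Tpm1 to 0.0633 FPKM for Synpo2 as control means, and the points of the 2 groups lie close together beside the differences between genes.

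Of the 7 listed genes with a CArG match in their window, Acta2, Myl9 and Vcl fell, and Cnn2, Myl6, Srf and Lpp were not called. Tagln, Actg2 and Myh11 had no window in the promoter table. Of the deposited pathway labels, vascular smooth muscle contraction held 8 listed genes, of which 3 fell and 1 rose, and 80 other tested genes, of which 5 were lower and 1 was higher. Focal adhesion held 8 listed genes, of which 2 fell and 1 rose, and 163 others, of which 23 were lower and 11 higher. Regulation of actin cytoskeleton held 7 listed genes, of which 2 fell and 1 rose, and 173 others, of which 23 were lower and 13 higher. Tight junction held 6 listed genes, of which 1 fell, and 139 others, of which 6 were lower and 18 higher. Adherens junction held 3 listed genes, of which 1 fell, and 66 others, of which 6 were lower and 7 higher. Beside these counts, 5.83% of all tested genes were lower and 4.46% higher, and 12 of the 31 listed genes were lower and 1 higher. No pathway was tested as a set.

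**Figure D5:**
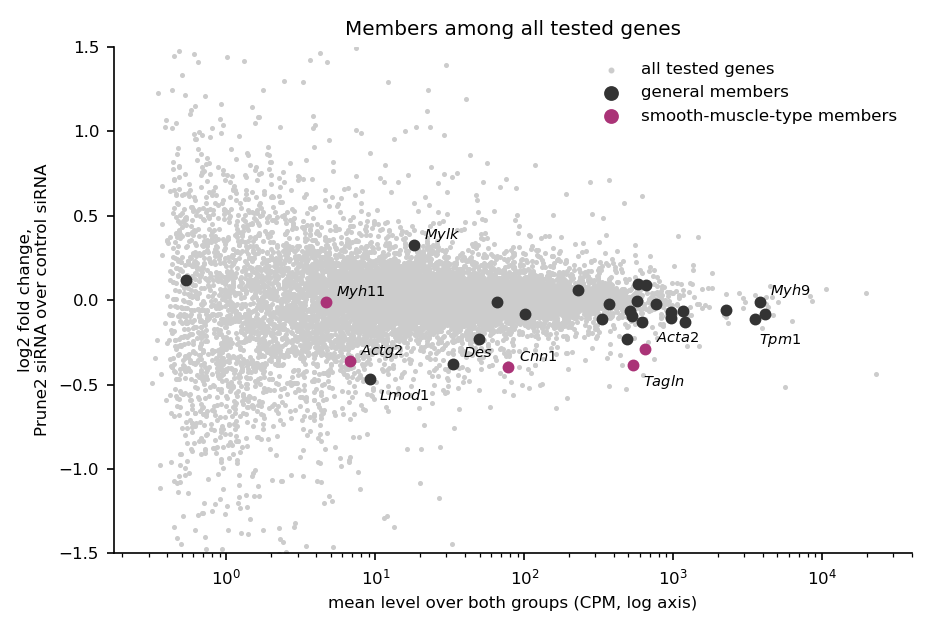
Log2 fold change with Prune2 siRNA (y axis) against the mean level over both groups (x axis, CPM on a log scale) for all tested genes in grey and the listed genes in colour; 213 genes beyond 1.5 in either direction are outside the plot. Tagln, Acta2 and Cnn1 lie toward the lower edge of the genes of like level, and most general genes lie within the grey band around 0.

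Some values carry limits of the counting, whose use of strand is not given in the sources used here. In the GENCODE annotation 62.4% of the exonic bases of Tagln lie over exons of Gm48529 on the opposite strand, as do 25.5% of those of Vcl over Ap3m1, 17.7% of those of Cnn3 over Gm42928 and 16.3% of those of Smtn over Gm11946. For each of these pairs, reads of the 2 genes may not be told apart. Tpm4, Cnn3 and Myl6 share 11.7%, 10.3% and 8.38% of their 50-base words with transcripts of other genes, mainly Gm7809, Gm4815 and Gm5526, so their counts are uncertain, and every other listed gene shares less than 1%. In the authors' deposited table, adjusted over all its genes, 13 of the 31 listed genes were called at an adjusted p under 0.05, 12 lower and 1 higher, against 4.64% of its 22274 genes, and 12 of the 13 were called in the same direction here. In that table the authors' higher gene was Smtn (adjusted p = 0.0413), and Mylk was not called (adjusted p = 0.056).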

How the data were processed

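The deposited table gives counts and FPKM per gene for 6 libraries and a table of the authors' own comparison with log2 fold changes and p-values, per the file headers. GRCm38 and mm10 are the genome builds named in the submitters' processing notes. Aligner, counter, strand setting and the model behind the deposited p-values: not given in the sources used here. For Tagln, Cnn1 and Acta2 the deposited log2 fold change (-0.38, -0.33 and -0.26) was the log2 ratio of the group mean FPKM. Groups and replicate numbers came from the sample titles. Of the listed genes, 26 were found in the symbol column and 5 (Acta2, Actg2, Myl6, Tpm1 and Tpm2) by gene identifier, since that column spells them differently or leaves them blank. The name table matched 22219 of 22274 identifiers.

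The count test was edgeR 4.0.16, run in R 4.3.3 (TMM scaling, filterByExpr, quasi-likelihood F test, Benjamini-Hochberg over 13248 genes, called under 0.05). Alternatives used DESeq2 1.42.0 and limma 3.58.1 (voom, and log2 of the deposited FPKM + 1), other scalings and filters, a replicate block, and leaving out each library. On simulated counts for this comparison over 13151 genes, 40% of genes changed 1.2-fold were called, 84% at 1.5-fold and 96% at 2-fold, with 8 false among 166 calls. Only 50 genes were changed at each fold there, while 1364 were called in the data. The adjustment for multiple tests depends on that number, so these shares do not carry over directly. Replicates differed by more than counting error. Totals of 20075265 to 23234797 counts set the precision, which is poor for Actg2, Myh11 and Synpo2. All listed genes are accounted for, called genes and the 5 smooth-muscle-type genes with every library's value. From each other list up to 2 called genes per direction were named, with others where a count of 5 or fewer called for names. Beyond this rule, Actb, Actg1, Mrtfa, Mrtfb and Myocd were named for their known roles. The listed genes, the other lists and the tests were chosen with earlier results of these data known. The result of 1 other gene list is not reported here.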

Additional observations from a re-analysis of the deposited data

How the results depend on the processing

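Of the 13 called genes, Tagln, Cnn1, Acta2, Palld, Des and Myl9 kept the call under all 15 alternatives, 7 lost it in at least 1 and none changed direction, while 5 uncalled genes gained a call in at least 1. Limma on log2(FPKM + 1) called 754 genes, 6 listed genes lower (3 of the general ones) and 0 higher, and gave a smooth-muscle-type median of -0.29 and a Prune2 log2 fold change of -0.24 (adjusted p = 0.141). DESeq2 called 2 general genes higher, and total-count scaling 9 listed genes lower. Leaving out 1 library gave 997 to 1249 calls, 7 to 10 listed genes lower, 0 to 2 higher, 4 to 7 general genes lower, 0 to 2 general genes higher and a smooth-muscle-type median of -0.42 to -0.28. The cause of these shifts was not tested. Estimates near 0 changed sign: with total counts Myh9 to 0.00087, Srf to 0.00084, Cnn2 to 0.0053 and Myh11 to 6.96e-06; on log2(FPKM + 1) Myh9 to 0.0012, Srf to 0.0027, Cnn2 to 0.015, Myh11 to 0.0014, the Myh11 to Myh9 ratio to 0.00019 and the Actn1 to Actn4 ratio to -0.0028. With 1 library left out, log2 fold changes ranged from -0.17 to 0.48 for Synpo2, -0.026 to 0.012 for Myh9, -0.041 to 0.041 for Srf, -0.024 to 0.023 for Cnn2 and -0.19 to 0.14 for Myh11. The ratio differences ranged from -0.14 to 0.16 for Myh11 to Myh9, -0.059 to 0.0079 for Tpm2 to Tpm4 and -0.0079 to 0.024 for Actn1 to Actn4. Libraries of the same replicate number deviated together with r = 0.112, 0.0124 and 0.0777. Among control libraries only replicate 1 correlated best with its own number, and among Prune2 siRNA libraries replicates 1 and 3 did. These values do not settle whether the numbers mark a pairing. With a replicate block 1490 genes were called and 12 listed genes were lower. Depth limits Actg2, Myh11 and Synpo2. A filter of 1 CPM in 3 libraries and the FPKM filter left Synpo2 without a value.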
